A study of Homo sapiens with 18 samples.

Results

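The expression of 10 genes of the steroid receptor chaperone machinery was followed in LNCaP cells, an established androgen-sensitive human prostate cancer line, across 6 treatment groups. The genes were FKBP4 (encoding FKBP52), FKBP5 (encoding FKBP51), PTGES3 (p23), PPID (cyclophilin 40), STIP1 (HOP), HSP90AA1 and HSP90AB1 (the inducible and constitutive cytosolic HSP90), HSPA8 (constitutive HSP70), STUB1 (CHIP) and DNAJB1 (an HSP40). They were listed by gene name, with earlier results of these data known, and all probes annotated to them were taken. This gave 15 of the 47223 probes on the Illumina expression arrays and 10 of the 20045 genes named by 1 probe or more. HSP90AA1 had 3 probes, HSPA8, STUB1 and PPID had 2 each, and the other 6 genes had 1 each.

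All groups were kept in medium with charcoal-stripped serum, which lowers the steroid content, and were treated for 24 h before total RNA was extracted. The groups received DMSO (vehicle), 10 nM DHT (dihydrotestosterone, an androgen), 1 µM Flutamide, 1 µM Flutamide with 10 nM DHT, 30 µM MJC13, or 30 µM MJC13 with 10 nM DHT. The DHT concentration is that of the sample labels, and the study's methods give a lower one. Each group had 3 arrays, 18 in all, and no source used here says that the 3 came from separate cultures, so p-values measure only the spread between these arrays. Flutamide is a classic antagonist directed at the hormone pocket of the androgen receptor, and MJC13 is described as binding the receptor surface and holding it in its cytoplasmic complex with FKBP52 and HSP90. All arrays come from this single cell line. The comparisons ask whether transcripts of that complex changed with DHT or with either antagonist.

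Steroid receptors without hormone pass through a cycle of chaperone complexes. HSP70 and HSP40 bind the receptor first, HOP bridges HSP70 to HSP90, and p23 stabilizes the late complex in which HSP90 also holds 1 of the tetratricopeptide immunophilins, FKBP51, FKBP52 or cyclophilin 40. In this late state the receptor binds hormone with high affinity. FKBP52 is known to raise androgen receptor activity, FKBP51 is a well known androgen-induced gene in prostate cells, and CHIP is a ubiquitin ligase that directs chaperone-bound clients to degradation.

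Regulatory sequence is shown for FKBP5 because it had the largest DHT difference. For HSP90AA1, HSP90AB1 and HSPA8, the window shown is the one that held a heat shock element. Sequences are from RefSeq on GRCh38.p14 and cover the 250 bases before an annotated start. Of the 10 genes, 8 had such windows, 15 in all. FKBP4 and STUB1 had none in the sequences used here, so no count of motifs covers them. FKBP5 lies on chromosome 6 at chr6:35573590-35728583, and its 2 windows lie on the minus strand at chr6:35728584-35728833 and chr6:35688916-35689165. Neither held any motif searched, so no base is in capitals. Sequence of FKBP5 outside these windows was not searched, so whether the gene has androgen response elements was not tested.
FKBP5, upstream start: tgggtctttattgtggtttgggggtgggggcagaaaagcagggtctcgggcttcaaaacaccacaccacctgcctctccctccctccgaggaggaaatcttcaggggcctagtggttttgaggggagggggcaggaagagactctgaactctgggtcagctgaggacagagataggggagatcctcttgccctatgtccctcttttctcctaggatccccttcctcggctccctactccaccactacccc
FKBP5, downstream start: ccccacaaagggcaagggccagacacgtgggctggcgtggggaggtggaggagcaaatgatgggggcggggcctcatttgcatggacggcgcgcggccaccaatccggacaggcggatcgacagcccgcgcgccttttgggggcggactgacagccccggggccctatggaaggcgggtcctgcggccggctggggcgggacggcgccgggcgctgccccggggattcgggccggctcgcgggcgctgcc

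The heat shock element was searched on both strands as GAA, TTC and GAA in a row, each separated by 2 bases of any kind, so that a match on the other strand reads TTC, GAA and TTC, and is in capitals in the next 3 sequences. It occurred in 3 of the 15 windows, and in 155 of the 35116 windows of the whole table (0.441%). HSP90AA1 (chr14:102087045-102087294, minus strand) held 1 match, HSP90AB1 (chr6:44247693-44247942, plus strand) held 2, and HSPA8 (chr11:123062137-123062386, minus strand) held 2. The other windows of HSP90AA1 and HSP90AB1 held none. All 3 windows shown lie inside the annotated span of their gene.
HSP90AA1: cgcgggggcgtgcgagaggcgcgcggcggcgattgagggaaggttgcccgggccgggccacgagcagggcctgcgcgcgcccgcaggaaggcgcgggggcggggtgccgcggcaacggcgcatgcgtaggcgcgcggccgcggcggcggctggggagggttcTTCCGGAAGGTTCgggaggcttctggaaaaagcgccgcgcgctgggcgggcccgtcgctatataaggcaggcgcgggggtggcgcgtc
HSP90AB1: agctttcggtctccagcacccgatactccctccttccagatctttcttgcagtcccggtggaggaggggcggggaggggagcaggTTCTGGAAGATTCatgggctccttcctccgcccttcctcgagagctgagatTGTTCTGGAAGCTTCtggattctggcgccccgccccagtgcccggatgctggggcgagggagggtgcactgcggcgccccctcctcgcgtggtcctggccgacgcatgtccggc
HSPA8: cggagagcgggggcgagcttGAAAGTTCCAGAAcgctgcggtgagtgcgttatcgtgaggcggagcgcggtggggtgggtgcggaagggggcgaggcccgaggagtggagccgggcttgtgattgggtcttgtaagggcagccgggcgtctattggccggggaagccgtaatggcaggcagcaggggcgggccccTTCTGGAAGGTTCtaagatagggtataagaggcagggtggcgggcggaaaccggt
In HSP90AB1 the capitals of the second match run on from an overlapping TGTTCT, a single arm of the androgen response element. That arm was found in 1 of the 15 windows and in 12.4% of all windows. The full element, AGAACA and TGTTCT separated by 3 bases, was found in 0 of the 15 windows and in 0.00285% of all windows. The latter is 1 of 35116 windows. An exact match this rare was not to be looked for in 15 windows, so its absence cannot show that a gene lacks androgen response elements. A match, or the lack of one, is a description of these letters only.

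Values are given on the deposited log2 scale, so that a difference of 1 is a 2-fold change. Means are given with SD over 3 arrays, and differences with the SE, the 95% interval and the p of a limma model of all 18 arrays, adjusted by the Benjamini-Hochberg method over the 28334 probes bright enough to test. A gene was called at an adjusted p under 0.05. With 3 arrays against 3, the smallest p that a two-sided exact permutation test can give is 0.1. Of the 15 member probes, 13 probes of 9 genes were bright enough, and both PPID probes were not. The cells carried markers of their labelled tissue, since 8 of 8 luminal prostate markers on the array passed this filter, against 3 of 10 markers of basal cells, stroma, leukocytes and endothelium (COL1A1, DCN and PECAM1).

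FKBP5 showed the largest DHT difference of the genes tested. FKBP51, its product, is an HSP90-bound immunophilin that lowers hormone binding by the glucocorticoid receptor. In DMSO the 3 arrays read 11.59, 11.41 and 11.25, and with DHT they read 12.28, 12.21 and 12.49. Every DHT array was above every DMSO array. The means were 11.42 ± 0.17 and 12.33 ± 0.15, a difference of 0.91 (SE 0.24), or 1.88-fold with an interval of 1.33 to 2.65. The limma adjusted p was 0.168, so FKBP5 was not called, and the exact permutation p was 0.1, the smallest possible.

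With Flutamide present, the FKBP5 arrays read 11.46, 11.61 and 11.65 without DHT, and 11.73, 11.68 and 12.19 with it. These groups also did not overlap, though the highest array without DHT and the lowest with it lay close together. The difference was 0.29 (1.23-fold, interval 0.868 to 1.73, limma adjusted p = 0.990). With MJC13 present, the arrays read 11.53, 11.10 and 11.64 without DHT, and 11.59, 11.20 and 12.29 with it. Here the groups overlapped, and replicate 3 with DHT stood well above the other 2. The difference was 0.27 (1.20-fold, interval 0.854 to 1.70, limma adjusted p = 0.924).

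Averaged over the 3 backgrounds (no antagonist, Flutamide, MJC13), the FKBP5 response to DHT was 0.49 (SE 0.14), or 1.41-fold with an interval of 1.15 to 1.71. Its limma adjusted p was 0.105, again not called. A two-sided exact permutation test within the backgrounds, over 8000 arrangements, gave p = 0.008 for this single value. Without replicate 2 of MJC13 with DHT, the averaged response was 0.57 and was called (limma adjusted p = 0.0250). With the title number as a replicate block, FKBP5 was called both for DHT against DMSO (adjusted p = 0.0301) and for the averaged response (adjusted p = 0.0230). The title numbers did not meet the pairing rule for DMSO with DHT, or for Flutamide with and without DHT. They met it for MJC13 with and without DHT. By these numbers, the array with DHT was above the array without it in each of the 3 pairs of every background. Without antagonist and with Flutamide the groups did not overlap, so any pairing of those arrays gives that sign. The differences were 0.69, 0.80 and 1.25 without antagonist, 0.27, 0.07 and 0.53 with Flutamide, and 0.05, 0.11 and 0.64 with MJC13.

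**Figure D1:**
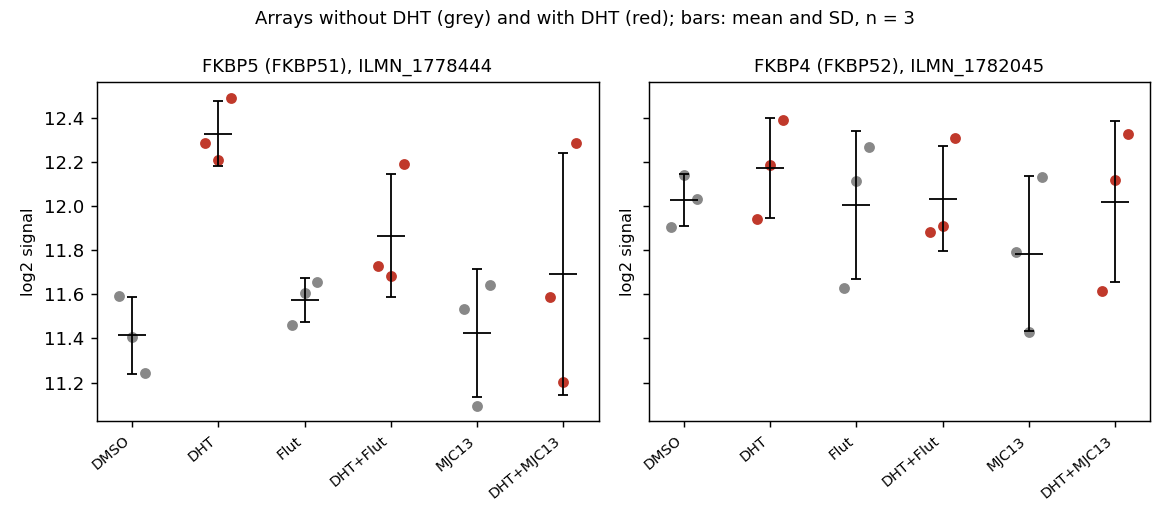
The log2 signal of FKBP5 and FKBP4 on each of the 18 arrays by treatment group, with mean and SD (n = 3), grey without DHT and red with DHT. The 3 FKBP5 arrays with DHT alone lie between 12.21 and 12.49, above the 3 DMSO arrays, while the FKBP4 groups all overlap.

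Against DHT alone, FKBP5 was lower by 0.46 when Flutamide was added (0.727-fold, interval 0.515 to 1.02, limma adjusted p = 1.00). The highest array with Flutamide, 12.19, lay just below the lowest with DHT alone, 12.21, so the groups did not overlap. With MJC13 added it was lower by 0.64 (0.644-fold, interval 0.456 to 0.908, limma adjusted p = 1.00). Replicate 3 of that group, at 12.29, lay inside the DHT range, and the exact permutation p was 0.3.

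The tests of the change in response itself also missed the threshold. Flutamide altered the FKBP5 response to DHT by -0.62 (SE 0.33, limma adjusted p = 1.00), and MJC13 altered it by -0.64 (SE 0.33, limma adjusted p = 0.999). The responses under the 2 antagonists differed by -0.02, with an interval of 0.605-fold to 1.60-fold, which leaves room for a difference in either direction. The changes of response by Flutamide and by MJC13 share the DHT and DMSO arrays. Over the 13 member probes, 0 were called for a change of response by Flutamide or MJC13 or for the difference between the responses (0% of all probes each), and the numbers at an unadjusted p under 0.05 were 0, 0 and 1 (HSP90AA1, ILMN_1691097), against 2.24%, 3.91% and 4.47% of all probes. Without DHT, FKBP5 was 1.12-fold with Flutamide (interval 0.791 to 1.57) and 1.01-fold with MJC13 (interval 0.713 to 1.42) relative to DMSO. Ordered by mean, the groups ran from DMSO and MJC13 (both 11.42) through Flutamide (11.57), MJC13 with DHT (11.69) and Flutamide with DHT (11.87) to DHT (12.33), and each neighbouring pair overlapped except the last.

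FKBP4 (chr12:2794970-2805423 on GRCh38.p14) encodes FKBP52, the immunophilin of the complex named for MJC13, and no treatment difference exceeded the spread between its arrays. It read 11.91, 12.14 and 12.03 in DMSO and 11.94, 12.19 and 12.39 with DHT. With Flutamide it read 11.63, 12.11 and 12.27, and 11.88, 11.91 and 12.31 once DHT was added. The MJC13 arrays read 11.79, 11.43 and 12.13, and 11.62, 12.12 and 12.33 with DHT. Every group overlapped every other group it was compared with, and the single lowest array was MJC13 replicate 2. The means ran from 11.78 ± 0.35 with MJC13 to 12.17 ± 0.23 with DHT.

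DHT against DMSO gave 1.11-fold for FKBP4 (interval 0.791 to 1.55, limma adjusted p = 0.943). Averaged over the backgrounds it was 1.10-fold (interval 0.906 to 1.34). MJC13 alone gave 0.846-fold (interval 0.604 to 1.18, limma adjusted p = 1.00), and Flutamide alone gave 0.984-fold (interval 0.704 to 1.38). Added to DHT, MJC13 gave 0.899-fold (interval 0.643 to 1.26) and Flutamide 0.909-fold (interval 0.649 to 1.27). A 2-fold change of FKBP52 mRNA therefore lay outside each of these intervals, while smaller changes lay within them.

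Across the 13 member probes, 0 were called for DHT against DMSO by limma, against 54 of all probes (0.191%). At an unadjusted p under 0.05 there was 1 member probe, FKBP5, against 8.28% of all probes. The groups did not overlap for 1 member probe, also FKBP5, against 14.1% of all probes, so the members' share was not above the background. Of the 13 probes 8 were higher and 5 lower with DHT, with a median difference of 0.14 beside -0.01 for all probes tested. Averaged over the backgrounds, 0 member probes were called against 265 of all probes (0.935%), and again 1, FKBP5, had an unadjusted p under 0.05, against 11% of all probes. The intervals of most member probes left out a 2-fold change. For DHT against DMSO, 12 of 13 intervals lay within 2-fold in either direction, with FKBP5 the exception, but only 5 lay within 1.5-fold. For the averaged response all 13 did, and 11 lay within 1.5-fold. These counts have a limit at the top of the scale, since no value in the table exceeded 14.82. DMSO means were 14.30 and 13.84 for HSP90AA1 (ILMN_1691097 and ILMN_2373515), and 14.11 and 13.89 for the HSPA8 probes. A 2-fold rise from these would pass 14.82, so their intervals cannot speak on such a rise.

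**Figure D2:**
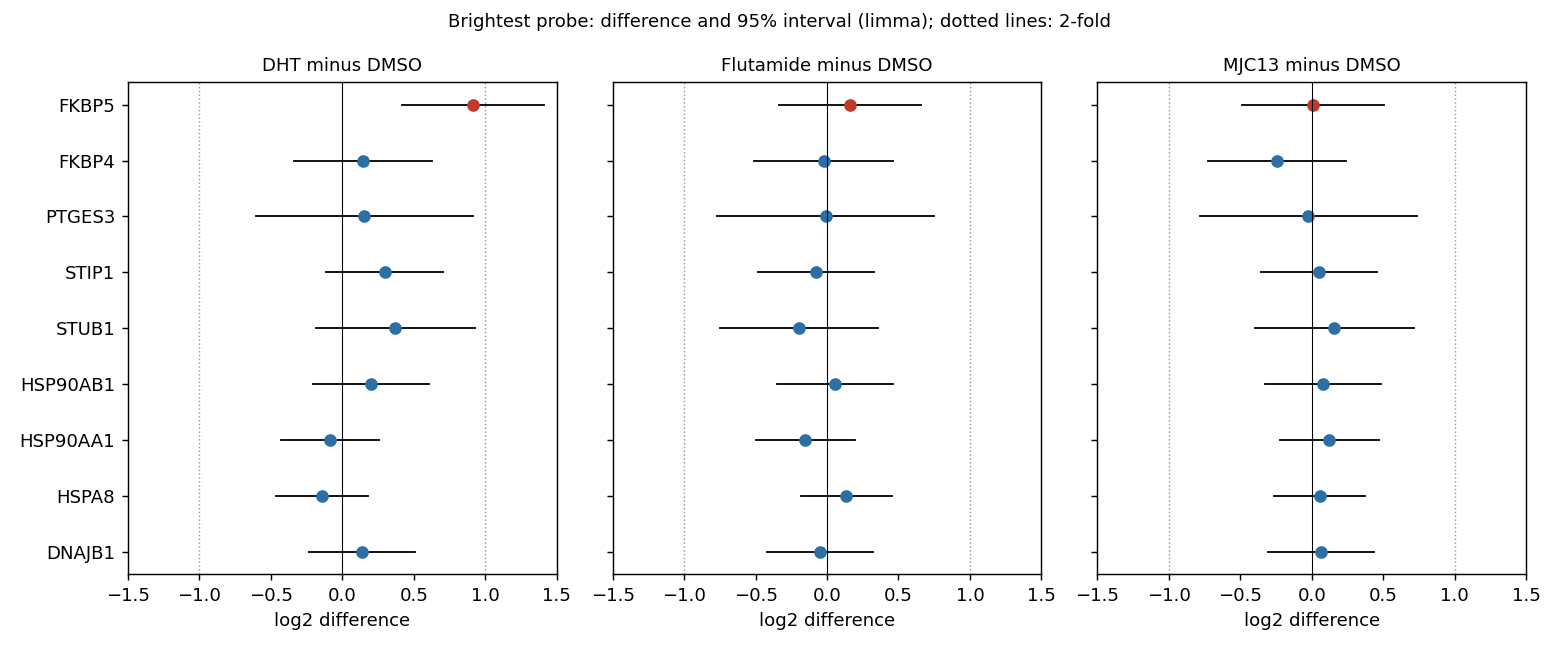
The log2 difference of each gene's brightest probe, with its 95% limma interval, for DHT, Flutamide and MJC13 against DMSO; dotted lines mark 2-fold. For DHT against DMSO the FKBP5 interval, 1.33-fold to 2.65-fold, is the only one that leaves out no change, and the FKBP4 interval holds it in each panel.

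The same androgen treatment raised the reference genes. KLK2, a kallikrein protease gene used as an androgen marker, went from 6.72 ± 0.13 in DMSO to 8.96 ± 0.20 with DHT, 4.71-fold (limma adjusted p = 0.00181). Of 7 androgen reference genes tested, 5 were called higher (ORM2, TRPM8, KLK2, ORM1 and AZGP1). KLK3, at 5.30-fold (limma adjusted p = 0.0738), and TMPRSS2, at 2.25-fold (limma adjusted p = 0.2255), were higher but not called. A gene that is not called can therefore still differ by several fold. These reference genes were listed with earlier results of these arrays known.

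STIP1 had the next lowest p after FKBP5 for DHT. HOP, its product, passes clients from HSP70 to HSP90. It read 12.09, 11.80 and 12.45 in DMSO, and 12.12, 12.64 and 12.47 with DHT. The groups overlapped, and the difference was 0.30 (1.23-fold, interval 0.926 to 1.63, limma adjusted p = 0.791). With Flutamide it read 12.06, 11.86 and 12.19, and with DHT added 12.37, 12.37 and 12.25. Those groups did not overlap, at a difference of 0.29 (limma adjusted p = 0.990). With MJC13 the difference was 0.03 (interval 0.768-fold to 1.35-fold). Averaged over backgrounds STIP1 was 1.15-fold with DHT (limma adjusted p = 0.546), and the exact permutation p was 0.0545.

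PTGES3, encoding the late-stage co-chaperone p23, varied widely between arrays of 1 group. It read 11.64, 12.07 and 12.70 in DMSO, and 12.93, 12.02 and 11.93 with DHT. The SD was between 0.38 and 0.64 in every group, and group means took up 4.69% of its variance, below the median of 24.5% over the probes tested. DHT against DMSO gave 1.11-fold with an interval of 0.657 to 1.88, the widest interval of the 9 genes on the log2 scale. The sign of this difference turned when replicate 1 of DMSO (-0.09) or of DHT (-0.16) was left out.

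PPID, encoding cyclophilin 40, another large HSP90 immunophilin, lay near the floor of the array. Its brighter probe read 6.06, 6.07 and 6.11 in DMSO, and 6.39, 7.26 and 5.94 with DHT. Replicate 2 was also the highest array with DHT in the other backgrounds, at 6.87 with Flutamide and 6.61 with MJC13. The second probe stayed between 5.96 and 6.65 on all arrays. The mean of each probe was under the filter at 6.31, so neither was tested and no level of cyclophilin 40 can be ranked.

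STUB1, encoding the ubiquitin ligase CHIP, had probes that moved together from array to array. The brighter one read 10.74, 10.69 and 11.65 in DMSO, and 11.11, 11.41 and 11.68 with DHT. DMSO replicate 3 lay within the range of the DHT arrays, so the groups overlapped. With 1 array left out, the difference on this probe ran from 0.20 to 0.68, the latter without DMSO replicate 3. None of these was called (lowest limma adjusted p = 0.374). With all arrays the difference was 0.37 (1.29-fold, interval 0.881 to 1.90, limma adjusted p = 0.824), and on the second probe 0.07 (interval 0.615-fold to 1.78-fold). Deviations from group means correlated at r = 0.703 between the STUB1 probes over 18 arrays, as a description. MJC13 alone gave 1.12-fold on the brighter probe and 1.37-fold on the other, with intervals of 0.759 to 1.64 and 0.804 to 2.33.

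The chaperones HSP90AB1 and DNAJB1 showed no treatment difference beyond their spread. HSP90AB1, the constitutive cytosolic HSP90, read 13.72, 13.41 and 13.82 in DMSO, and 14.07, 13.93 and 13.56 with DHT. These overlapped, at 1.15-fold (interval 0.868 to 1.52, limma adjusted p = 0.884). Over all 18 arrays it stayed between 13.41 and 14.07. DNAJB1, the HSP40 that activates the HSP70 ATPase, read 10.99, 10.86 and 11.29 in DMSO, and 11.26, 11.30 and 11.01 with DHT, at 1.10-fold (interval 0.852 to 1.43). MJC13 alone gave 1.06-fold for HSP90AB1 and 1.05-fold for DNAJB1, and Flutamide alone gave 1.04-fold and 0.967-fold.

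**Figure D3:**
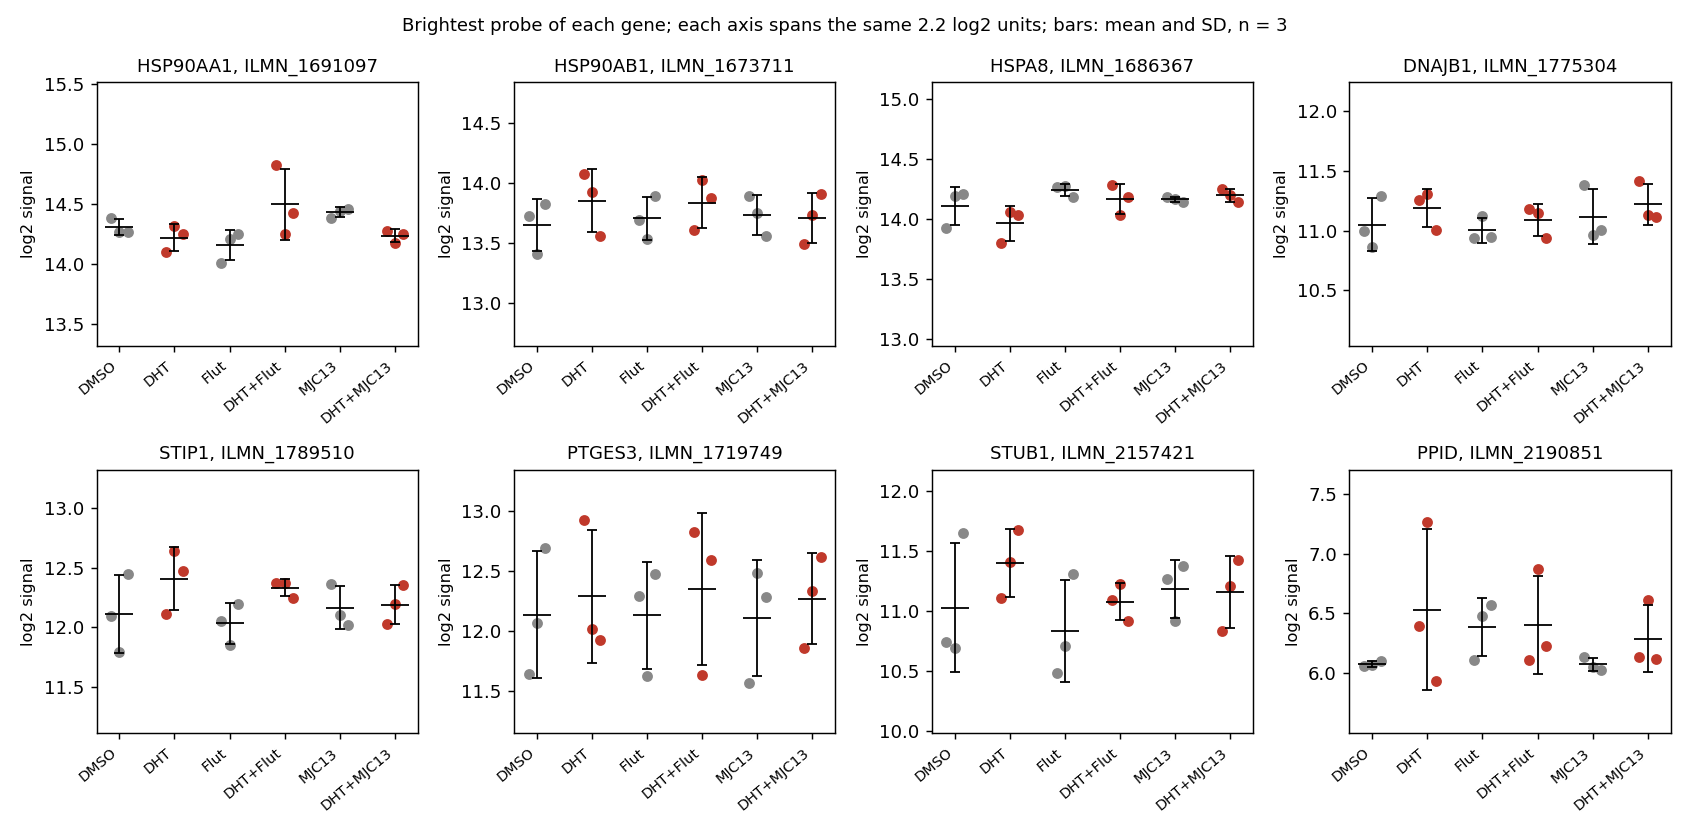
The log2 signal of the brightest probe of the other genes on each array by group, with mean and SD (n = 3); every axis spans the same number of log2 units. PTGES3 arrays spread from 11.57 to 12.93, and HSP90AB1 stays between 13.41 and 14.07.

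HSPA8, the constitutive HSP70 that loads the receptor onto the pathway, had 2 probes whose deviations correlated at r = 0.821 over 18 arrays. The brighter one read 13.80, 14.06 and 14.03 with DHT alone, and 14.25, 14.19 and 14.14 with MJC13 added. These groups did not overlap. The difference was 0.23 (1.17-fold, interval 0.941 to 1.46, limma adjusted p = 1.00), and the second probe gave 0.26 (limma adjusted p = 1.00), also without overlap. DHT against DMSO gave 0.906-fold and 0.912-fold on the 2 probes.

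HSP90AA1, the stress-inducible HSP90, had 3 probes that disagreed. The brightest (ILMN_1691097) read 14.01, 14.21 and 14.24 with Flutamide, and 14.82, 14.24 and 14.42 with DHT added. The groups were separated only beyond the 2 decimals shown. The 14.82 in replicate 1 was the highest value in the whole table, which after quantile normalization marks a rank on that array. On this probe the response to DHT with Flutamide was 0.34 (limma adjusted p = 0.990). A second probe (ILMN_2373515) read 14.05, 13.96 and 14.20, and 13.89, 13.63 and 13.72 with DHT added. That is the opposite direction, -0.33 (limma adjusted p = 0.990), again without overlap. The dimmest probe (ILMN_1687546) gave 0.00. Deviations correlated between the 3 probes at r = 0.352, 0.265 and 0.116 over 18 arrays.

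The HSP90AA1 probes also differed when MJC13 was added to DHT. The dim probe read 6.90, 7.11 and 7.20 with DHT alone, and 7.88, 7.30 and 7.56 with MJC13 added, which did not overlap. The difference was 0.51 (1.42-fold, interval 0.996 to 2.03, limma adjusted p = 1.00). The brightest probe gave 0.02 and the second 0.15. HSP90AA1 is therefore described probe by probe, and no direction is given for the gene as a whole.

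**Figure D4:**
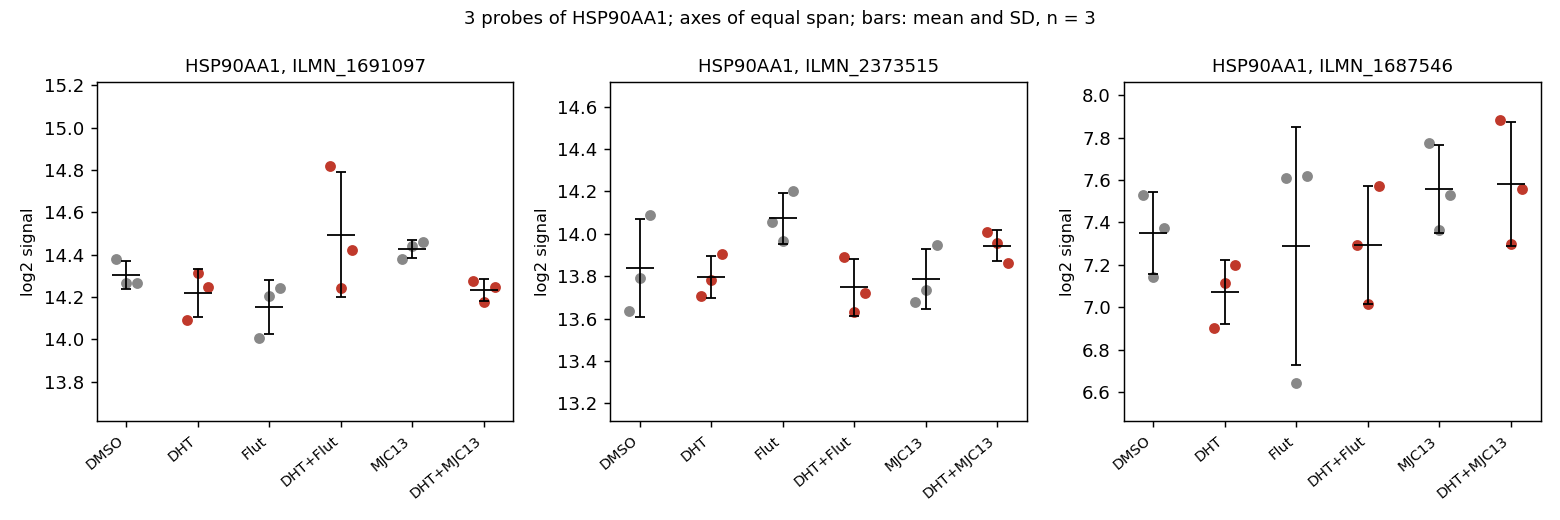
The log2 signal of each of the 3 HSP90AA1 probes on the 18 arrays by group, with mean and SD (n = 3). With Flutamide, adding DHT moved the mean by 0.34 on ILMN_1691097, by -0.33 on ILMN_2373515 and by 0.00 on ILMN_1687546.

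With an antagonist present in both groups, DHT called 0 member probes and limma called 0 of all probes (0%). With Flutamide present, 0 member probes had an unadjusted p under 0.05, against 4.64% of all probes. Groups did not overlap for 4 of the 13, against 7.16% of all probes, with FKBP5, STIP1 and the brightest HSP90AA1 probe higher and the second HSP90AA1 probe lower. With MJC13 present, 0 member probes had an unadjusted p under 0.05, against 5.66%, and 1 was without overlap (HSP90AA1, ILMN_1691097, at -0.19), against 11.1%. The other HSP90AA1 probes there were at 0.16 (ILMN_2373515) and 0.02 (ILMN_1687546).

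The antagonists alone called 0 member probes, and limma called 0 of all probes (0%) for either. At an unadjusted p under 0.05 there were 0 member probes for Flutamide alone, against 2.58% of all probes, and 0 for MJC13 alone, against 2.24%. For Flutamide alone 13 of 13 member intervals lay within 2-fold, and for MJC13 alone 12 of 13, with a STUB1 probe the exception. As above, both HSPA8 probes and all HSP90AA1 probes but the dim one lay too near the top of the scale to show a 2-fold rise. Groups did not overlap for 1 member probe with Flutamide alone (HSP90AA1, ILMN_1691097, at -0.15, while ILMN_2373515 was at 0.23 and ILMN_1687546 at -0.06) against 4.91% of all probes, and for 0 with MJC13 alone against 6.64%. Averaged with and without DHT, each antagonist called 0 member probes (0% of all probes), and 0 had an unadjusted p under 0.05, against 1.58% of all probes for Flutamide and 1.72% for MJC13. The median difference of the antagonists alone over the members was -0.02 for Flutamide and 0.06 for MJC13, beside 0.00 for all probes.

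Antagonists added to DHT also called 0 member probes and 0 of all probes (0%) by limma. Adding Flutamide gave 0 member probes at an unadjusted p under 0.05, against 1.54% of all probes, and 1 without overlap, FKBP5, against 6.86%. Adding MJC13 gave 1, FKBP5, against 3.08%, and 3 without overlap, both HSPA8 probes and the dim HSP90AA1 probe, all higher, against 8.81% of all probes separated in either direction. MJC13 was then set against Flutamide directly. With DHT present, 0 member probes were called (0% of all probes), 0 had an unadjusted p under 0.05 (1.41% of all probes), and 0 were without overlap (5.18%). FKBP5 there was 0.886-fold with MJC13 relative to Flutamide (interval 0.628 to 1.25) and FKBP4 was 0.990-fold (interval 0.708 to 1.38).

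Without DHT, MJC13 against Flutamide called 0 member probes (0% of all probes) and gave 0 at an unadjusted p under 0.05 (5.22%). Here 4 of the 13 probes were without overlap, against 8.44% of all probes. They were HSP90AA1 (ILMN_1691097), higher with MJC13 by 0.27, HSP90AA1 (ILMN_2373515), lower by 0.29, and both HSPA8 probes, lower by 0.08 and 0.25. None of these 4 was called. The largest difference was on the second STUB1 probe, 0.67 higher with MJC13 (1.60-fold, interval 0.936 to 2.72, limma adjusted p = 0.924), and its groups overlapped.

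**Figure D5:**
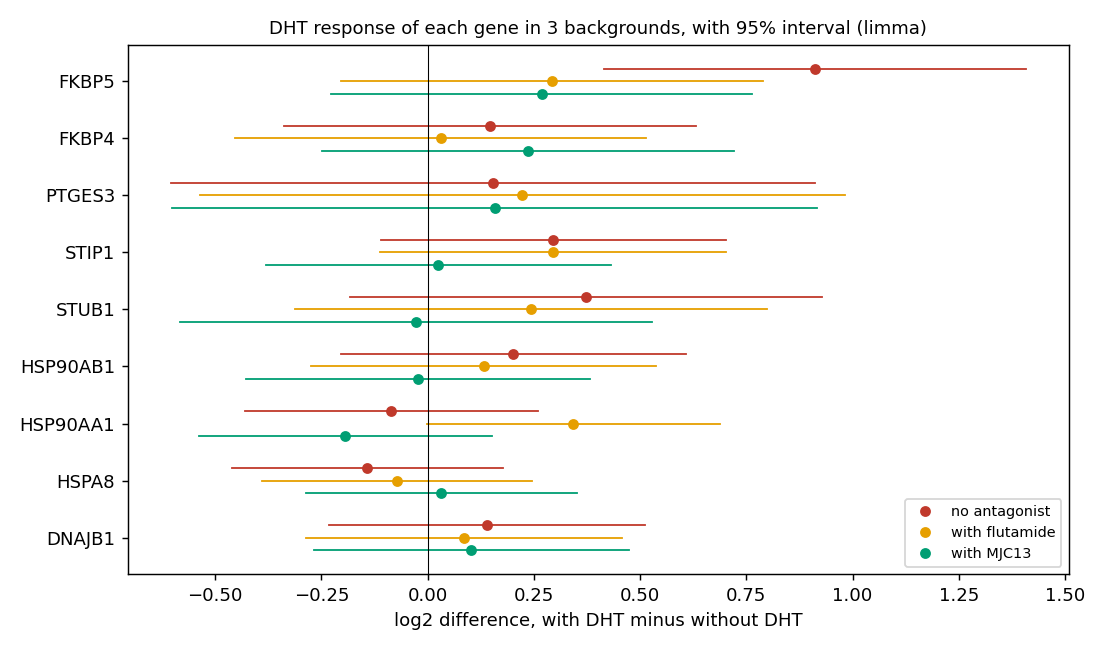
The log2 response to DHT of each gene's brightest probe without antagonist, with Flutamide and with MJC13, each with its 95% limma interval. FKBP5 has the largest response without antagonist, 0.91, against 0.29 with Flutamide and 0.27 with MJC13.

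Share of variance between the 6 groups set FKBP5 apart from FKBP4. For FKBP5 it was 62.9%, and 2.57% of all tested probes had a larger share. For FKBP4 it was 19.4%, under the median of 24.5%. Between FKBP5 and FKBP4 lay the brightest HSP90AA1 probe at 51.2% and the brighter HSPA8 probe at 50.4%. Larger shares than theirs were held by 8.16% and 8.8% of tested probes. The other probes of these genes had 48.15% and 31.6% for HSP90AA1, and 36.7% for HSPA8. The genes whose pattern over the 18 arrays was most like that of FKBP5 were PNP (r = 0.937), GINS3 (0.935), UBE2C (0.934), TRIM49D1 (0.927) and C19orf48P (0.925). For FKBP4 they were APLN (r = 0.843), FLJ16779 (0.821), BOLA3 (0.819), CAB39L (0.818) and KCNK5 (0.809). These are descriptions over arrays that share their treatment groups.

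The rest of the pathway was read from lists of gene names made with earlier results of these data known, 1 probe a gene. Of 11 other FKBP immunophilins tested, 0 were called by limma for DHT against DMSO, averaged DHT, or either antagonist alone. FKBP11, an immunophilin of the secretory pathway, was closest, at 10.87 ± 0.30 in DMSO and 11.59 ± 0.23 with DHT. That is 1.65-fold (limma adjusted p = 0.410), and 1.40-fold averaged over backgrounds (adjusted p = 0.153). FKBPL, a relative with tetratricopeptide repeats, followed at 0.25 on the averaged log2 scale (limma adjusted p = 0.694).

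Other HSP90 co-chaperones gave 0 calls of 12 tested in the same comparisons. With DHT against DMSO 11 of the 12 were higher, at a median of 0.11, beside -0.01 for all probes. The lean was smaller with an antagonist present, at 8 higher with Flutamide and 9 with MJC13, each at a median of 0.04. CACYBP, encoding a calcyclin-binding protein, was the 1 gene at an unadjusted p under 0.05 for DHT against DMSO, against 8.28% of all probes. It differed by 0.54 (limma adjusted p = 0.574) and was named for this value. The HSP70 system gave 0 calls of 19. HSPA14, a ribosome-associated HSP70, differed by 0.39 averaged over backgrounds (limma adjusted p = 0.296), and HSPA1L, a testis-enriched HSP70, by -0.27 (limma adjusted p = 0.355). DNAJB2, named after its value was seen, differed by -0.27 (limma adjusted p = 0.428).

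Targets of heat shock factor gave 0 calls of 14 for DHT or either antagonist alone. HSPH1, an HSP110 exchange factor, differed by 0.20 averaged over backgrounds (limma adjusted p = 0.4995), and CHORDC1 by 0.24 (limma adjusted p = 0.530). For the antagonists alone, 1 target of the 14 each had an unadjusted p under 0.05, against 2.58% of all probes for Flutamide and 2.24% for MJC13. Both targets were named after their values were seen. HSPA6 was at -0.59 with Flutamide and HSPE1 at -0.41 with MJC13, each with a limma adjusted p of 1.

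Of 5 client receptors listed, 2 were tested and 0 were called in these comparisons. The mineralocorticoid receptor gene NR3C2 went from 10.45 ± 0.31 in DMSO to 9.92 ± 0.30 with DHT (limma adjusted p = 0.537). The glucocorticoid receptor gene NR3C1 read 7.07 ± 0.18 and 7.30 ± 0.19, and averaged over backgrounds it differed by 0.10 (limma adjusted p = 0.903).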

How the data were processed

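Total RNA from LNCaP cells in 6 groups of 3 arrays was labelled and hybridized to Illumina BeadChips. The authors took signals from GenomeStudio, removed background and applied quantile normalization with lumi. They deposited log2 values, which here spanned 5.81 to 14.82 and had the same median, 6.60, in each column. Tool versions, and whether the log2 was plain or variance-stabilized, are not given in the sources used here. Quantile normalization makes all values relative to the other probes. The table before normalization (36 columns) was not used, since its array codes match no sample.

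Probes were named from the platform annotation (1 symbol for 30111 probes, several for 8, none for 17104). Tests covered the 28334 probes whose mean exceeded 6.31, the 40th percentile. The brightest probe stood for a gene. A means model of the 6 groups (12 residual degrees of freedom) was fitted with limma 3.58.1 in R 4.3.3, and each of 15 contrasts was adjusted by the Benjamini-Hochberg method over these probes. Scripts were tested on simulated data. Precision is limited by the number of arrays, 3 a group. No chip or scan batch is known for the arrays.

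The members, lists and tests were chosen with earlier results of these data known. Named were all 10 members, the 5 genes most correlated with FKBP4 and with FKBP5, the client receptors and KLK2, and from each list any called gene or the 2 with the lowest p for averaged DHT. The other HSP90 co-chaperones were an exception, since only CACYBP was named, by its p for DHT against DMSO. Alternatives were other filters, moderation, groups, thresholds, replicate blocks and leaving out each array. Title numbers were read as pairing a pair of groups if deviations from the group means correlated over 0.1 for all 3 numbers. That was so in 5 of 15 pairs of groups. It was not so for DMSO with DHT (0.0184, 0.0727 and 0.0953), or for Flutamide with and without DHT (0.268, 0.273 and -0.0145). The title number differs from the number in the description for 11 arrays.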

Additional observations from a re-analysis of the deposited data

How the results depend on the processing

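Over 15 comparisons and 26 alternatives each, 387 of 390 combinations called 0 member probes, and the other 3 called 1, FKBP5. With the title number as a replicate block, the FKBP5 difference for DHT against DMSO was 0.91 at an adjusted p of 0.0301, and the averaged response was 0.49 at 0.0230, with 469 and 1164 of all probes called in place of 54 and 265. With the description number as a block they were 0.89 (adjusted p = 0.304) and 0.48 (adjusted p = 0.250), with 39 and 100 probes called. Title numbers pair 5 of 15 pairs of groups, and among these the block called 0 member probes, though it called 5 of all probes for DHT with MJC13 present in place of 0. Leaving out 1 array, the FKBP5 difference for DHT against DMSO ran from 0.83 to 1.00, and the averaged one from 0.39 without MJC13 with DHT replicate 3 to 0.57 without replicate 2 of that group, where it was called (adjusted p = 0.0250, 1 member probe, 547 probes in all). Over all arrays left out in turn, 7 to 95 probes were called for DHT against DMSO, and 102 to 547 for the averaged response. Without a filter 33 and 148 were called, at the 60th percentile 35 and 274, with only the compared groups 87 and 265, with the brightest probe of each gene 30 and 228, and at an adjusted p under 0.01 15 and 68. With 1 array left out, the PTGES3 difference for DHT against DMSO ran from -0.16 (without DHT replicate 1) to 0.43 and was also negative, -0.09, without DMSO replicate 1. With 1 array left out, the uncalled differences for DHT against DMSO ran from 0.20 to 0.68 for STUB1, 0.14 to 0.46 for STIP1, 0.04 to 0.26 for FKBP4, 0.08 to 0.35 for HSP90AB1, 0.05 to 0.26 for DNAJB1 and -0.23 to -0.06 for HSPA8. With 1 array left out, the averaged HSP90AA1 difference ran from -0.033 (without Flutamide with DHT replicate 1) to 0.063 and was also negative, -0.0028, without Flutamide replicate 1, and with the description number as a block it was 0.07. The causes were not tested.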
